A study of Mus musculus with 9 samples.

Results

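The genes described here are 37 genes of sugar breakdown, sugar synthesis and the response to low oxygen, read in organoids grown from mouse small intestine, which are closed epithelial cultures. They form a fixed list of names, picked with earlier results of these data known: 15 enzymes of glycolysis and its exit steps, 13 genes that respond to hypoxia, 2 enzymes that set fructose-2,6-bisphosphate, and 7 genes of gluconeogenesis, fructose use and phosphoglucomutase. Each was read through the brightest Affymetrix Mouse Genome 430 2.0 probe set named to that gene alone, and 33 of the 37 were tested among 12941 genes. Gpi1 and Eno1 are named on no probe set in the platform annotation used here, Gapdh is named alone only on control probe sets, and Pck1, with signals of 12.6 to 31.7, did not pass the filter on low values.

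The 9 arrays fell into 3 groups of 3. Untreated organoids were cultured for 6 days. A second group received an inhibitor of the Tgfb receptors 1 and 2 at 20 uM, and the remaining group the ligand Tgfb1 at 0.04 ng/mL, both for 5 days from day 1. The labels do not name the inhibitor, a vehicle or the mouse strain, and leave unsaid whether each replicate had its own culture. The p-values therefore rest on array-to-array spread that may be only technical. Since the arrays read bulk RNA, fewer cells of a type and less RNA per cell cannot be told apart.

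Glycolysis splits glucose into pyruvate, with hexokinase and phosphofructokinase as its main control points, and lactate dehydrogenase turns pyruvate into lactate. Gluconeogenesis runs the path backwards through its own enzymes, fructose bisphosphatase and PEP carboxykinase among them. Ketohexokinase phosphorylates fructose inside the cell, a step in using dietary fructose, which is a main task of the small intestinal epithelium. When oxygen is short, the prolyl hydroxylases no longer mark hypoxia-inducible factor (HIF) for destruction, and HIF with its partner ARNT binds the core letters ACGTG or GCGTG near its targets, which include many glycolytic genes.

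Within each group, arrays correlated at 0.989 or more over all genes, and the median SD within a group was 0.11 on the log2(signal + 16) scale, on which all log2 changes below were measured. The brightest signal of ligand replicate 3 was 24599 against 17003 to 22097 on the other 8 arrays. Its 99th percentile (8271) and its median (51.6) lay within the range of the other arrays. It gave the highest value of its group for 24 of the 33 genes tested, against 5 for ligand replicate 1 and 4 for ligand replicate 2. The share over all genes was not computed. Array medians ran from 46.1 to 57.9. A gene is said to have risen, fallen or changed, or to be called, where its p, adjusted over all 12941 genes, was under 0.05.

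With the inhibitor, 7 of the 33 genes rose (Hk1, Pfkp, Pfkfb4, Ankrd37, Car9, Adm and Pgm2) and 4 fell (Hk2, Ddit4, Fbp1 and Pck2). Over all genes 44.9% were called in this comparison, 21.1% higher and 23.9% lower, so the 11 called here were no larger a share than the background. Their median log2 change was -0.02 beside -0.01 over all genes. Only 4 were called higher when untreated replicate 1 or untreated replicate 3 was left out, and also 4 when the variance was not allowed to follow intensity.

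With the ligand, 2 genes rose (Hk2 and Ddit4) and 11 fell (Hk1, Pfkp, Pdk1, Egln1, Ndrg1, Kdm3a, Pfkfb4, Fbp1, Fbp2, Khk and Pgm1). The background was 24% called, 14.7% higher and 9.28% lower. The median log2 change was -0.17 over these genes and 0.05 over all genes. The count that fell was 7 without untreated replicate 2 or ligand replicate 2, 6 without untreated replicate 3 or ligand replicate 1, and 16 without ligand replicate 3. Both comparisons with untreated organoids use the same 3 untreated arrays, so their values are given side by side and not correlated.

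The 2 treatments were also set against each other directly. With ligand against inhibitor, 3 genes were higher (Hk2, Ddit4 and Pck2) and 16 lower, where the background was 55.3% called, 32.4% higher and 22.9% lower. The median log2 change was -0.20 here and 0.07 over all genes. Scaling mattered for the sign of small changes: centring each array on its median moved the median of all genes by -0.11 for ligand against untreated and by -0.16 for ligand against inhibitor. The share of all calls that were higher then went from 61.3% to 36.6% and from 58.6% to 41.8%. Relative to the median of all genes, the genes here stood at -0.22 and -0.26 in these comparisons, which median centring cannot alter, since it moves all genes of an array alike, and at -0.18 and -0.20 after quantile normalization.

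**Figure D1:**
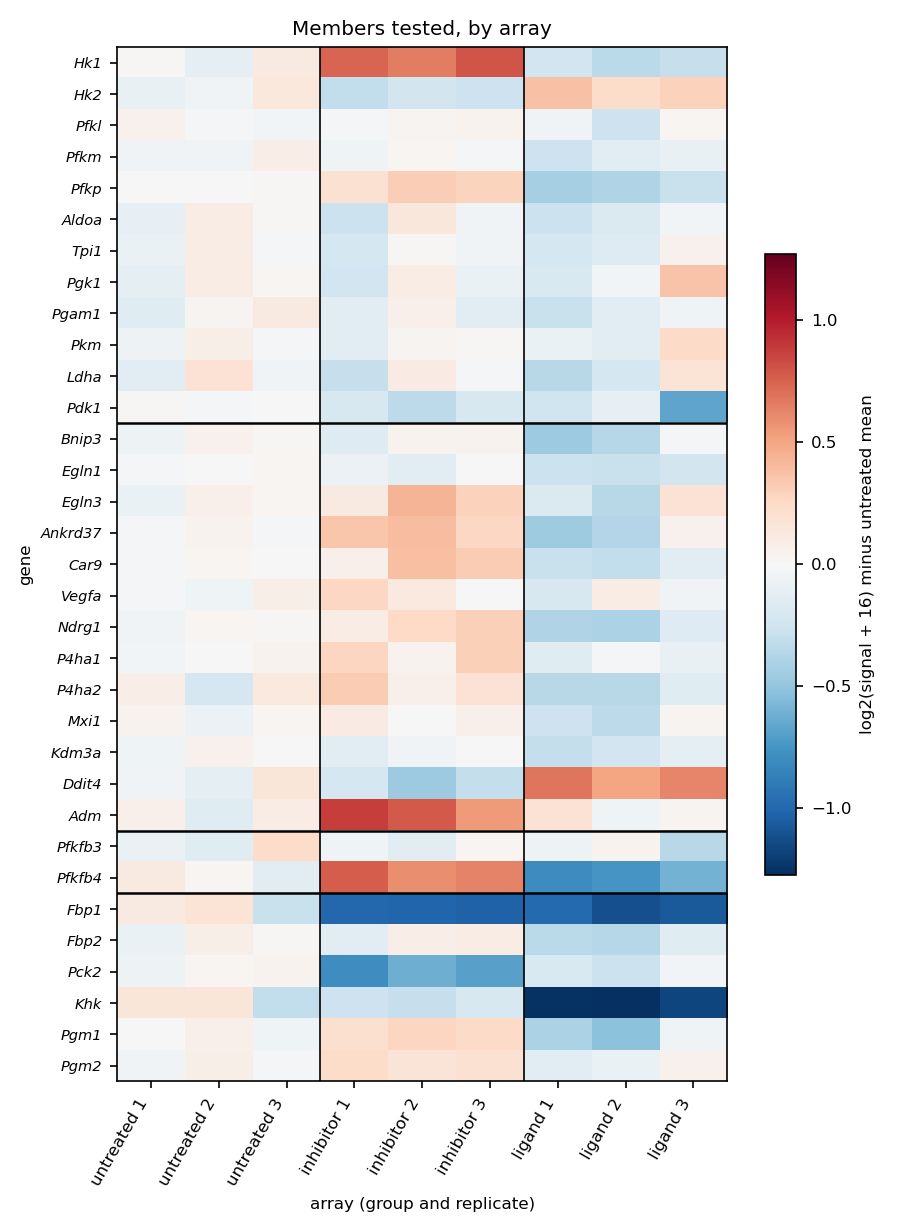
Each row is 1 of the 33 genes tested and each column 1 array, and colour gives log2(signal + 16) minus the untreated mean of that gene, with horizontal lines between glycolytic, hypoxia, fructose-2,6-bisphosphate and gluconeogenesis genes. Hk1, Adm and Pfkfb4 are red on all 3 inhibitor arrays, Hk2 and Ddit4 are red on all 3 ligand arrays, Fbp1 is blue on all 6 treated arrays, and ligand 3 is redder than ligand 1 and ligand 2 in most rows.

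Promoters of 5 genes that carry the HIF core letters are shown. Pfkfb4, Ankrd37 and Car9 were higher with the inhibitor, and Hk2 and Ddit4 lower. The sequences come from RefSeq, build GRCm38.p6, cover 250 bases before to 50 after the annotated start, and are written 5′ to 3′ on the gene's strand. Capitals mark ACGTG or GCGTG on either strand, where CACGT and CACGC are the same letters read on the opposite strand. The windows are chr9:108991652-108991951 (+) for Pfkfb4, chr8:45999801-46000100 (-) for Ankrd37, chr4:43506776-43507075 (+) for Car9, chr6:82774405-82774704 (-) for Hk2 and chr10:59951721-59952020 (-) for Ddit4.
Pfkfb4: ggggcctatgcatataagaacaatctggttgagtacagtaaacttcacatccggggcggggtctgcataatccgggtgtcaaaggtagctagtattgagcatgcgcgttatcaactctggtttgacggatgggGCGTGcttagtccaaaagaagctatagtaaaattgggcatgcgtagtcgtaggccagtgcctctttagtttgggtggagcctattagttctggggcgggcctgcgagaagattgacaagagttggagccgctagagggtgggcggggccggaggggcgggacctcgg
Ankrd37: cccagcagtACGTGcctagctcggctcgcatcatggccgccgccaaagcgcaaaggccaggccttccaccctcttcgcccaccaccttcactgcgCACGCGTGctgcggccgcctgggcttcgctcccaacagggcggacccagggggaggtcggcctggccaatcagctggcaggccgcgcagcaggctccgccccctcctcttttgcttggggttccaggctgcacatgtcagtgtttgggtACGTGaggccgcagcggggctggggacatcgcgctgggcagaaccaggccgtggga
Car9: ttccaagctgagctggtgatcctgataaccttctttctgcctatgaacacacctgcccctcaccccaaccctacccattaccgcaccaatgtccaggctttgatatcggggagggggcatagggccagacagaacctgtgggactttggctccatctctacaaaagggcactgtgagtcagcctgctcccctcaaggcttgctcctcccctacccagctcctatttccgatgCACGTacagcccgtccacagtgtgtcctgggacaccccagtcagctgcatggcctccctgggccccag
Hk2: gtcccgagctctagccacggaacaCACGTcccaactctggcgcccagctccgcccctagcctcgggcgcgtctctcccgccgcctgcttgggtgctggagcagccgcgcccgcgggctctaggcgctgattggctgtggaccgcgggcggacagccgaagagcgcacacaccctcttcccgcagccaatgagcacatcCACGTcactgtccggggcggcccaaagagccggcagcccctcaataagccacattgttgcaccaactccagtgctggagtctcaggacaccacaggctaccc
Ddit4: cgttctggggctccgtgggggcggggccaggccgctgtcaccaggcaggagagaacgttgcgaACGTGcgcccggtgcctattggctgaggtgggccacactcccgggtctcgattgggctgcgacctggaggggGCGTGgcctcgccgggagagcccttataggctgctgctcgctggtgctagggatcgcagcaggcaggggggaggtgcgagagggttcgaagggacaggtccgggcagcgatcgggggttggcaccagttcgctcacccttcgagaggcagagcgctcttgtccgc
The first base of each match, counted from the start site, lay at -117 in Pfkfb4, at -241, -155, -152 and -6 in Ankrd37, at -18 in Car9, at -226 and -52 in Hk2, and at -187 and -115 in Ddit4. Promoters were found for 36 of the 37 genes, Ndrg1 being the exception, and 32 of the 36 held a match in at least 1 of their promoters. The share of all genes with such a match was not computed. Of their 53 promoters, 40 (75.5%) held either motif, against 43.8% of all 32817 promoters of the same length. Some windows of the same gene overlap, as for Aldoa, so the 53 are not independent. The list was also picked to hold genes that respond to hypoxia. ACGTG was in 19.6% and GCGTG in 32.4% of all promoters, and CACGTG, the E-box that other factors bind and that contains ACGTG, in 7.1%. A match describes the letters and is not a measured binding site.

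The hexokinases, which trap glucose in the cell by phosphorylating it, moved in opposite directions. Hk1 (probe set 1437974_a_at) gave signals of 1106, 1003 and 1182 in untreated organoids, 1839.9, 1722 and 1912 with the inhibitor, and 923, 859 and 890.2 with the ligand. All inhibitor arrays lay above and all ligand arrays below every untreated array. Hk1 rose by 0.73 ± 0.07 (SE, log2, n = 3 arrays a group) with the inhibitor, with an adjusted p of 5.26e-06, and fell with the ligand (-0.29 ± 0.07, adjusted p = 0.0123). Against the inhibitor, the ligand value was -1.02 ± 0.07 (adjusted p = 1.21e-07). The ligand call was lost without untreated replicate 3, where the change was -0.24 with an adjusted p of 0.054, against a range of 0.00344 to 0.054 over 17 alternatives.

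Hk2 (1422612_at), a known HIF target, had the opposite pattern. The Hk2 promoter held 2 matches to the HIF core letters, and the Hk1 promoters, not shown above, held 5 and 0. Whether these letters bear on either pattern was not tested. Hk2 signals were 1421, 1467 and 1669 untreated, 1213, 1283 and 1263 with the inhibitor, and 1962, 1779 and 1860.2 with the ligand. The 3 groups did not overlap, with ligand arrays highest and inhibitor arrays lowest. Hk2 fell by 0.27 ± 0.07 with the inhibitor (adjusted p = 0.00883), rose by 0.30 ± 0.07 with the ligand (adjusted p = 0.0105), and differed by 0.57 ± 0.07 between the treatments (adjusted p = 2.19e-05). Median centring ended both calls against untreated, with adjusted p of 0.0663 (range over alternatives 0.00686 to 0.0663) and 0.196 (range 0.004 to 0.196). Leaving out untreated replicate 1 also ended the ligand call (0.25, adjusted p = 0.0527).

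Phosphofructokinase commits sugar to glycolysis, and of its 3 isoforms only Pfkp was called. Pfkp (1416069_at) gave 5006, 4982 and 5061 untreated, 5736, 6252 and 6115 with the inhibitor, and 3731, 3853 and 4123 with the ligand. No group overlapped another. Pfkp rose by 0.26 ± 0.07 with the inhibitor (adjusted p = 0.00707) and changed by -0.36 ± 0.07 with the ligand (adjusted p = 0.00214), which put ligand 0.63 log2 units under inhibitor (-0.63 ± 0.07, adjusted p = 5.24e-06). Pfkl, the liver form, was at -0.11 (95% interval -0.28 to 0.06) and Pfkm, the muscle form, at -0.15 (-0.32 to 0.02) for ligand against inhibitor. Both passed the threshold there under median centring, at -0.27 (adjusted p = 0.047, range 0.047 to 0.825) and -0.30 (adjusted p = 0.0127, range 0.0127 to 0.36), and Pfkm also under quantile normalization (-0.24, adjusted p = 0.0263). Median centring also brought Pfkm to a call for ligand against untreated (-0.28, adjusted p = 0.0452, range 0.0452 to 0.371).

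The enzymes of the lower pathway were not called in any of the 3 comparisons by limma at their brightest probe set, and 0 of these 6 had an unadjusted p under 0.05 in any of them. Aldoa (aldolase), Tpi1 (triose phosphate isomerase), Pgk1 (phosphoglycerate kinase), Pgam1 (phosphoglycerate mutase), Pkm (pyruvate kinase) and Ldha (lactate dehydrogenase) had log2 changes between -0.17 and 0.13, with 95% intervals that reached from -0.44 to 0.41. In a fit over all probe sets, a dimmer Tpi1 probe set (1435659_a_at) was called lower with the ligand (-0.29, adjusted p = 0.0351). Ldha gave 13654, 17051 and 14587 untreated, 12232, 16127 and 14756 with the inhibitor, and 11784, 12861 and 16957 with the ligand. The 3 groups overlapped, and the changes were -0.07 ± 0.14, -0.13 ± 0.14 and, for ligand against inhibitor, -0.06 ± 0.14. After quantile normalization Aldoa, Tpi1 and Ldha were called lower for ligand against inhibitor, at -0.20, -0.11 and -0.21, with adjusted p of 0.00275 (range 0.00275 to 0.952), 0.0374 (0.0374 to 0.995) and 0.00345 (0.00345 to 0.951).

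These probe sets were among the brightest on the arrays. Aldoa, Tpi1, Pgk1 and Ldha lay between 10347 and 17051 everywhere, above the 99th percentile of each array, which was 7342 to 8465. Whether such bright probe sets still follow the amount of RNA was not tested. The Gapdh control probe set for the middle of the transcript, left out of the fit, gave 14331, 16216 and 15187 untreated, 13896, 16295 and 15585 with the inhibitor, and 12261, 13702 and 16737 with the ligand, with overlap between the groups.

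Pdk1, the kinase that turns off pyruvate dehydrogenase and so keeps pyruvate out of the mitochondria, gave 4815, 4718 and 4775 untreated, 4150.1, 3793 and 4137 with the inhibitor, and 4003, 4428 and 2987 with the ligand. Every treated array was below every untreated one, and ligand replicate 3 was the lowest. The ligand change of -0.34 ± 0.11 passed the threshold (adjusted p = 0.0442), and the inhibitor change of -0.24 ± 0.11 did not (adjusted p = 0.101, range over alternatives 0.0032 to 0.254), but was called with the mean of the probe sets (adjusted p = 0.0032) and in a fit of the 2 groups alone (0.00741). The ligand call was lost in 10 of 17 alternatives, with adjusted p from 0.00853 to 0.373, among them those without untreated replicate 1, 2 or 3 or ligand replicate 1 (-0.39 to -0.34) and without ligand replicate 3 (-0.18, adjusted p = 0.0857). Its probe sets also disagreed. In a fit over all 23887 probe sets named to 1 gene that passed the filter, with p adjusted over these, the brightest for ligand against inhibitor was at -0.10 ± 0.12, while 1423748_at (0.25, adjusted p = 0.0119) and 1434974_at (0.53, adjusted p = 0.0027) were called higher. With the inhibitor, 1423748_at (-0.40, adjusted p = 0.000825) and 1435836_at (-0.24, adjusted p = 0.0286) were called lower.

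**Figure D2:**
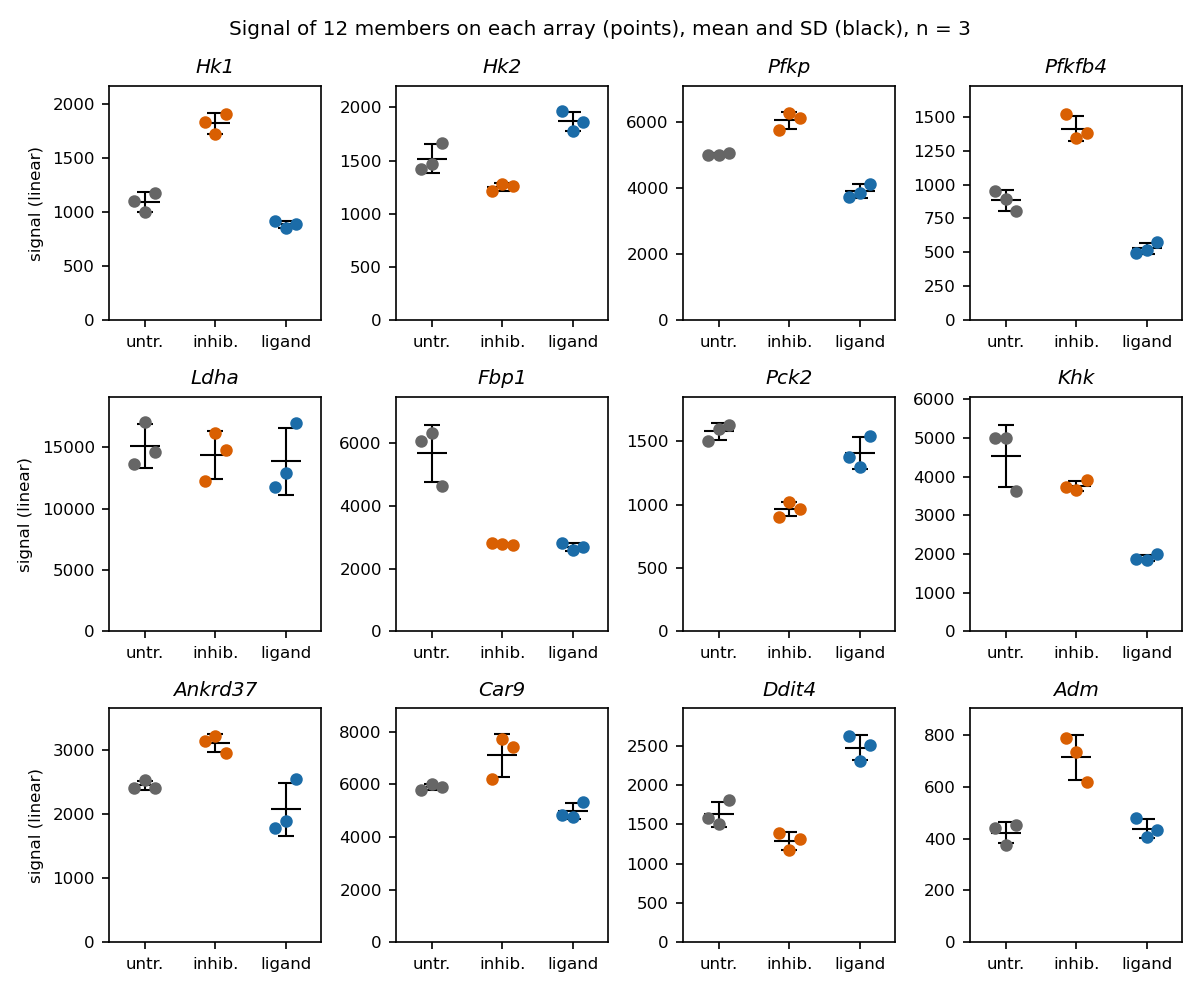
Linear signal (vertical axes, from 0) of 12 genes on each array (points), by group, with the mean and SD of 3 arrays in black. Hk1, Pfkp and Pfkfb4 are highest with the inhibitor and lowest with the ligand, Hk2 and Ddit4 are the reverse, Fbp1 is low in both treatments, Khk is lowest with the ligand, and the groups overlap for Ldha.

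Of the 2 enzymes among the 37 genes that make and remove fructose-2,6-bisphosphate, the strongest activator of phosphofructokinase, only Pfkfb4 was called. Pfkfb4 (1456888_at) gave 954, 895 and 803 untreated, 1517, 1339 and 1375 with the inhibitor, and 499, 517 and 576 with the ligand. The groups did not overlap, and the inhibitor mean of 1410.5 ± 93.9 (SD, n = 3) was 2.61 times the ligand mean of 531 ± 40.3 on the fitted scale. Pfkfb4 rose by 0.67 ± 0.08 with the inhibitor (adjusted p = 3.12e-05) and changed by -0.72 ± 0.08 with the ligand (adjusted p = 5.18e-05), a difference of -1.38 ± 0.08 between treatments (adjusted p = 2.4e-08). Pfkfb3, the more widely expressed isoform, had changes of -0.06, -0.12 and -0.07 with overlapping groups and a 95% interval for ligand against inhibitor of -0.32 to 0.19. Its promoters held 4 and 1 matches to the HIF core letters, and that of Pfkfb4 held 1.

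Among the 13 hypoxia response genes, 3 rose and 1 fell with the inhibitor, and 1 rose and 3 fell with the ligand, so 4 of 13 were called in each where all genes were called at 44.9% and 24%. For ligand against inhibitor, with 55.3% of all genes called, 9 were lower (Egln1, Egln3, Ankrd37, Car9, Ndrg1, P4ha1, P4ha2, Mxi1 and Adm) and Ddit4 was higher. Their median log2 change there was -0.29 beside 0.07 over all genes. Across the alternatives the number lower ran from 7, without ligand replicate 1, to 12, under median centring, and was 11 without ligand replicate 3.

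Adm, which encodes the secreted peptide adrenomedullin, changed with the inhibitor. It gave 439, 376 and 451 untreated, 789, 731 and 619 with the inhibitor, and 479, 406 and 431 with the ligand. All inhibitor arrays lay above all others, and untreated and ligand arrays overlapped. Adm rose by 0.73 ± 0.10 with the inhibitor (adjusted p = 7.6e-05), and the ligand change was 0.05 with a 95% interval of -0.17 to 0.28. The ligand value was -0.68 ± 0.10 against the inhibitor (adjusted p = 9.11e-05).

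Car9, the membrane carbonic anhydrase that exports acid from hypoxic cells, gave 5795, 6016 and 5913 untreated, 6184, 7730.1 and 7408 with the inhibitor, and 4852, 4759 and 5336 with the ligand. The groups did not overlap, although inhibitor replicate 1 stood close to the untreated arrays. Car9 rose with the inhibitor by 0.26 ± 0.09 (adjusted p = 0.0298), a call lost in 7 of 17 alternatives whose adjusted p ran from 0.00147 to 0.13, 5 of them without untreated replicate 1, 2 or 3 or inhibitor replicate 2 or 3 (0.20 to 0.27). The ligand change was -0.25 ± 0.09 (adjusted p = 0.0613), and -0.30 without ligand replicate 3 (adjusted p = 0.0288, range 0.0288 to 0.167). That change was also called after quantile normalization (adjusted p = 0.0423), median centring (0.0493), in a fit of the 2 groups alone (0.0448) and with a replicate block (0.0481). Between the treatments Car9 differed by -0.51 ± 0.09 (adjusted p = 0.000291), a call kept in all 17 alternatives.

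Ankrd37, an ankyrin repeat gene known as a HIF target, gave 2417, 2532 and 2409 untreated, 3144, 3222 and 2949.9 with the inhibitor, and 1786, 1892 and 2549.8 with the ligand. Inhibitor arrays were above all others, ligand replicates 1 and 2 lay below all untreated arrays, and ligand replicate 3 lay above them. Ankrd37 rose with the inhibitor by 0.34 ± 0.11 (adjusted p = 0.021), a call lost in 5 of 17 alternatives (adjusted p 0.000772 to 0.0699), including those without untreated replicate 1 or 3 or inhibitor replicate 1 or 2 (0.31 to 0.33). It was lower with ligand than with inhibitor (-0.59 ± 0.11, adjusted p = 0.000374). The ligand change of -0.26 (adjusted p = 0.104) became -0.41 without ligand replicate 3 (adjusted p = 0.000711, range 0.000711 to 0.349). Bnip3, a mitophagy receptor, went from -0.28 (adjusted p = 0.0752) to -0.41 without that array (adjusted p = 0.00322, range 0.00322 to 0.261). Its difference between treatments, -0.26 (adjusted p = 0.0576), passed without inhibitor replicate 1 (-0.33, adjusted p = 0.0317) or ligand replicate 3 (-0.39, adjusted p = 0.00147), with a range of 0.00147 to 0.233. Both Bnip3 changes were also called after quantile normalization (adjusted p = 0.0316 with the ligand and 0.0374 between treatments) and with a replicate block. The latter change was called under median centring too (adjusted p = 0.0198).

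The prolyl hydroxylases Egln1 and Egln3 are both HIF targets and brakes on HIF. Egln1 gave 1736, 1774 and 1799 untreated, 1681, 1615 and 1780.3 with the inhibitor, and 1458, 1451 and 1507 with the ligand. The ligand arrays lay below all others, and untreated and inhibitor arrays overlapped. Egln1 fell with the ligand (-0.26 ± 0.06, adjusted p = 0.00819) and was lower with ligand than inhibitor (-0.20 ± 0.06, adjusted p = 0.0158), the latter lost without inhibitor replicate 3 (-0.16, adjusted p = 0.0783, range 0.00341 to 0.0783). Egln3 gave 6448, 7185 and 6955 untreated, 7401, 9246 and 8427 with the inhibitor, and 6045, 5373 and 7809 with the ligand. Its difference between treatments was -0.39 ± 0.12 (adjusted p = 0.0156) although the groups overlapped at ligand replicate 3, and it was lost in 3 of 17 alternatives, those without inhibitor replicate 2 or ligand replicate 1 or 2 (-0.36 to -0.28, adjusted p over all alternatives 0.000391 to 0.0811). Its inhibitor change of 0.28 (adjusted p = 0.0846) passed without inhibitor replicate 1 (0.36, adjusted p = 0.047, range 0.00361 to 0.269). It also passed after quantile normalization (adjusted p = 0.011), with the mean of the probe sets (0.00361) and in a fit of the 2 groups alone (0.0224).

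Ndrg1, a stress-induced gene of epithelial differentiation, gave 9086, 9522 and 9436 untreated, 9956, 11168 and 11553 with the inhibitor, and 7188, 7075 and 8322 with the ligand. No group overlapped another. The ligand change was -0.32 ± 0.09 (adjusted p = 0.0201), lost in 4 of 17 alternatives (adjusted p 0.000122 to 0.0802), those without untreated replicate 2 or 3 or ligand replicate 1 or 2 (-0.31 to -0.27). Ligand against inhibitor was -0.53 ± 0.09 (adjusted p = 0.000186). The inhibitor change of 0.22 was not called (adjusted p = 0.0618), but was called after quantile normalization (0.32, adjusted p = 0.000281, range 0.000281 to 0.213) and without inhibitor replicate 1 (0.28, adjusted p = 0.0265). The mean of the probe sets (adjusted p = 0.000824) and a fit of the 2 groups alone (0.039) also gave the call.

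Ndrg1 had 5 probe sets above the filter, and the difference between treatments was larger the dimmer the probe set. It was -0.53 at a mean signal of 9256, -0.58 at 9111, -0.69 at 4856, -1.12 at 2535 and -1.85 at 1351. With the inhibitor, the 3 dimmest were called higher, at 0.35 (adjusted p = 0.00308), 0.47 (0.00703) and 0.70 (0.00357), and the 2 brightest, at 0.20 and 0.22, were not. Egln3 had -0.39 at 7209.9 and -0.72 at 3739, and its dimmer probe set gave 0.63 with the inhibitor (adjusted p = 0.000228) against 0.28 for the brighter. The 2 Hk1 probe sets differed little, with -1.02 at 1271 and -1.05 at 122. Over all members, several probe sets passed the filter for 17 of the 33 genes, and of the 29 further probe sets 27, 25 and 23 had the sign of the brightest in the comparisons of inhibitor with untreated, ligand with untreated and ligand with inhibitor. Besides the Pdk1 probe sets, 1 was called against the sign of the brightest: the Pfkl probe set 1453541_at, at -0.37 with the inhibitor (adjusted p = 0.0482). Whether brightness compresses these changes was not tested.

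**Figure D3:**
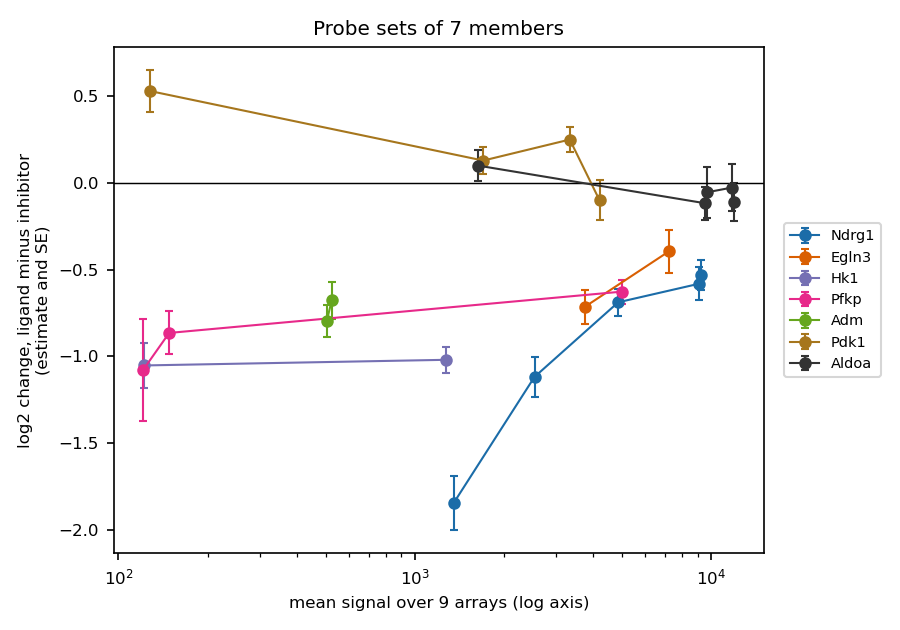
The log2 change for ligand minus inhibitor (vertical axis, estimate and SE) of each probe set above the filter for 7 genes, against its mean signal over 9 arrays on a log axis, with lines joining probe sets of 1 gene. The Ndrg1 change goes from -0.53 at its brightest probe set to -1.85 at its dimmest, and the Pdk1 probe sets fall on both sides of 0.

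The collagen prolyl hydroxylase subunits P4ha1 and P4ha2 were both lower with ligand than with inhibitor, at -0.29 ± 0.08 (adjusted p = 0.00869) and -0.48 ± 0.10 (adjusted p = 0.0016). P4ha1 gave 489, 497 and 515 untreated, 607, 517 and 622 with the inhibitor, and 448, 497 and 468 with the ligand. Its inhibitor arrays lay above all others, but the inhibitor change of 0.21 was not called (adjusted p = 0.058). It was called without inhibitor replicate 2 (0.29, adjusted p = 0.0165, range 0.0165 to 0.203) and under both rescalings. P4ha2 gave 541, 438 and 558 untreated, 642, 533 and 581 with the inhibitor, and 395, 395 and 457 with the ligand. Its ligand change of -0.29 (adjusted p = 0.0647) passed without untreated replicate 2 (-0.39, adjusted p = 0.0197) or ligand replicate 3 (-0.35, adjusted p = 0.0329), with a range of 0.0121 to 0.201. It also passed under both rescalings (adjusted p = 0.0248 and 0.0121) and with a replicate block (0.0391).

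Mxi1, which antagonises Myc, was lower with ligand than with inhibitor (-0.24 ± 0.09, adjusted p = 0.032), a call lost in 6 of 17 alternatives (adjusted p 0.000544 to 0.135), including those without inhibitor replicate 1 or 3 or ligand replicate 1 or 2 (-0.24 to -0.17). Its ligand change of -0.19 (adjusted p = 0.152) became -0.30 without ligand replicate 3 (adjusted p = 0.00588, range 0.00415 to 0.419). The mean of its probe sets was called lower with the ligand on all arrays (-0.35, adjusted p = 0.00415). So was its dimmer probe set 1425732_a_at in the fit over all probe sets (-0.52, adjusted p = 0.0055). Kdm3a, a histone demethylase, fell with the ligand (-0.22 ± 0.07, adjusted p = 0.0412), a call lost in 9 of 17 alternatives (adjusted p 0.0113 to 0.146), including those without untreated replicate 1, 2 or 3 or ligand replicate 1 or 2 (-0.25 to -0.18). Its difference between treatments, -0.16 (adjusted p = 0.0836), passed without ligand replicate 3 (-0.21, adjusted p = 0.0191, range 0.0191 to 0.343) and under median centring (adjusted p = 0.022). Vegfa, the angiogenic growth factor, was not called: it gave 1576, 1549 and 1689 untreated, 1929.7, 1747 and 1614 with the inhibitor, and 1387, 1716 and 1552 with the ligand, with overlap throughout. Its difference between treatments of -0.18 (adjusted p = 0.0926) passed without inhibitor replicate 3 (-0.25, adjusted p = 0.0497) or ligand replicate 2 (-0.26, adjusted p = 0.0277), with a range of 0.00602 to 0.349. It also passed under median centring (adjusted p = 0.00602).

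Ddit4 (1428306_at), an inhibitor of mTORC1 signalling induced by hypoxia and by other stresses, moved opposite to the other hypoxia genes called against untreated organoids. It gave 1576, 1499 and 1805 untreated, 1384, 1170.4 and 1309 with the inhibitor, and 2615, 2304 and 2506 with the ligand. The groups did not overlap, and the ligand arrays were the highest. Ddit4 fell by 0.33 ± 0.09 with the inhibitor (adjusted p = 0.00704) and rose by 0.60 ± 0.09 with the ligand (adjusted p = 0.000259), so that ligand exceeded inhibitor by 0.94 ± 0.09 (adjusted p = 1.06e-06). All 3 calls were kept in all 17 alternatives.

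Of the gluconeogenesis and fructose genes, Fbp1, the fructose bisphosphatase of liver, kidney and intestine, fell in both treatments. Fbp1 (1448470_at) gave 6057, 6322 and 4619 untreated, 2804, 2786 and 2745 with the inhibitor, and 2813, 2580.0 and 2677 with the ligand. Every treated array was below every untreated one, and the treated groups overlapped each other. Fbp1 fell by 1.01 ± 0.10 with the inhibitor (adjusted p = 4.04e-06) and by 1.06 ± 0.10 with the ligand (adjusted p = 9.71e-06), and the treatments differed by -0.05 with a 95% interval of -0.26 to 0.17. Both falls use the same untreated arrays. Fbp2, the muscle form, fell with the ligand (-0.28 ± 0.09, adjusted p = 0.0289), a call lost in 5 of 17 alternatives (adjusted p 0.00849 to 0.107), including those without untreated replicate 2 or 3 or ligand replicate 1 or 2 (-0.28 to -0.25). Its inhibitor change was 0.01, and ligand was below inhibitor (-0.30 ± 0.09, adjusted p = 0.01).

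Khk, ketohexokinase, had the largest fall with the ligand among the 33 genes. It gave 4991, 4994 and 3615 untreated, 3728, 3647 and 3904 with the inhibitor, and 1872, 1847 and 1988 with the ligand. The ligand arrays were below all others, and untreated replicate 3 lay with the inhibitor arrays. Khk changed by -1.23 ± 0.11 with the ligand (adjusted p = 5.08e-06) and by -0.98 ± 0.11 for ligand against inhibitor (adjusted p = 4.56e-06). The inhibitor change was -0.25 (adjusted p = 0.0697), and -0.41 without untreated replicate 3 (adjusted p = 0.00102, range 0.00102 to 0.255). It was also called after quantile normalization (-0.28, adjusted p = 0.0328).

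Pck2, the mitochondrial PEP carboxykinase, gave 1503, 1601 and 1632 untreated, 907, 1022 and 969 with the inhibitor, and 1379, 1298 and 1544 with the ligand. The inhibitor arrays lay below all others, and untreated and ligand arrays overlapped. Pck2 changed by -0.70 ± 0.08 with the inhibitor (adjusted p = 1.03e-05), and ligand exceeded inhibitor by 0.53 ± 0.08 (adjusted p = 6.06e-05). The ligand change was -0.17 (adjusted p = 0.143), and -0.24 without ligand replicate 3 (adjusted p = 0.0312, range 0.0312 to 0.38).

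The phosphoglucomutases link glucose phosphate with glycogen. Pgm1 gave 2514, 2637 and 2437 untreated, 2919.6, 3052 and 2996 with the inhibitor, and 1903, 1758 and 2436 with the ligand, where ligand replicate 3 stood just under the untreated arrays. Pgm1 fell with the ligand (-0.33 ± 0.10, adjusted p = 0.0291, lost in 6 of 17 alternatives, range 0.000296 to 0.117), including those without untreated replicate 1 or 2 or ligand replicate 1 or 2 (-0.33 to -0.23). Ligand was below inhibitor (-0.57 ± 0.10, adjusted p = 0.000281). All Pgm1 inhibitor arrays lay above all untreated arrays, but the inhibitor change of 0.24 was not called (adjusted p = 0.0649, range 0.00564 to 0.163). It was called with the mean of the probe sets (adjusted p = 0.039) and in a fit of the 2 groups alone (0.00564). Pgm2 rose with the inhibitor (0.20 ± 0.07, adjusted p = 0.0341), a call lost in 8 of 17 alternatives (adjusted p 0.0163 to 0.106), including those without untreated replicate 1 or 3 or any 1 inhibitor array (0.17 to 0.21). Ligand was below inhibitor (-0.26 ± 0.07, adjusted p = 0.00676).

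**Figure D4:**
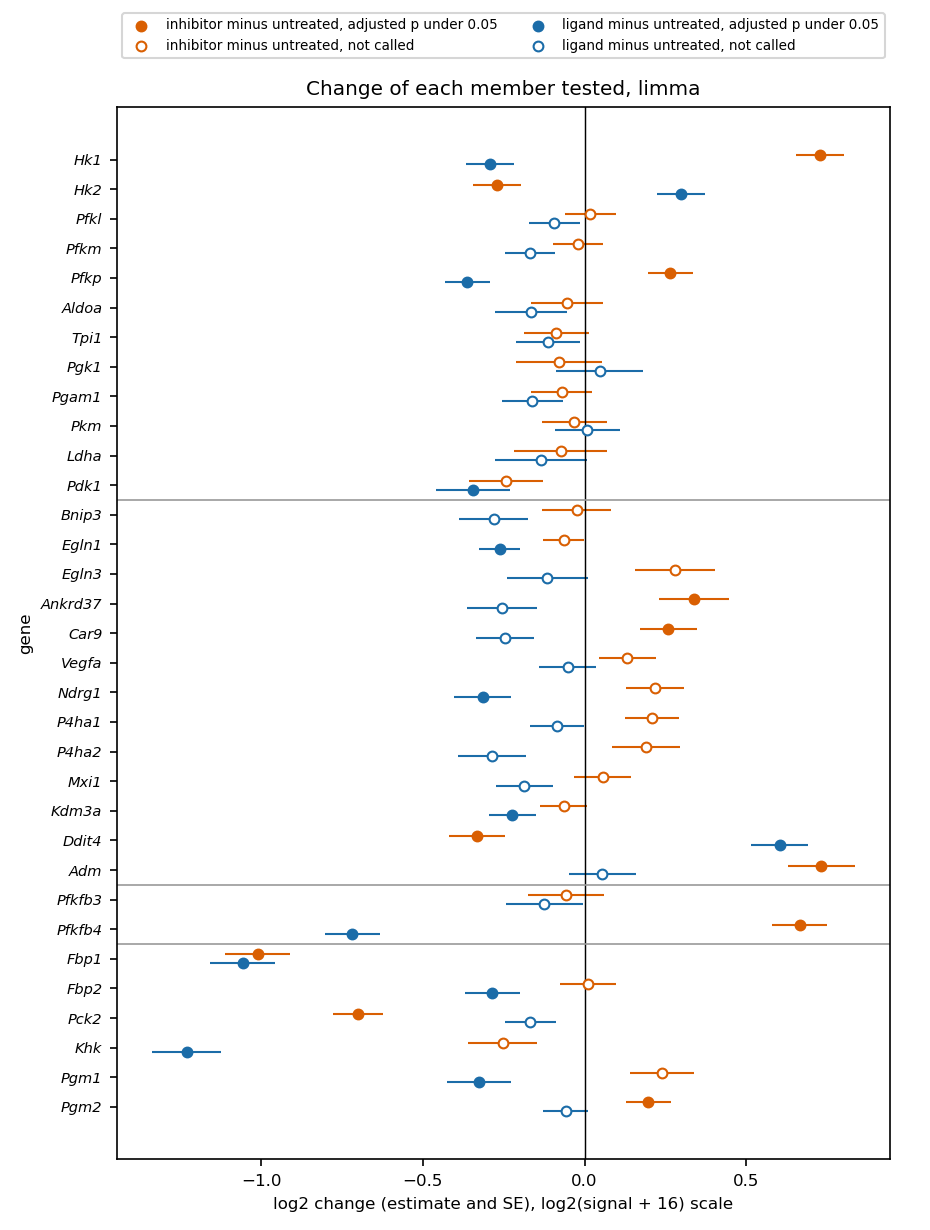
Log2 change of each of the 33 genes tested (horizontal axis, estimate and SE) for inhibitor minus untreated (orange) and ligand minus untreated (blue), with filled points where the adjusted p was under 0.05. Hk1, Pfkp and Pfkfb4 have filled points on opposite sides of 0, Hk2 and Ddit4 the reverse order, and Fbp1 has both filled points near -1.0.

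Other genes of the same pathways, taken from lists of general knowledge, moved as follows. Beside every count below stand the shares over all genes. With the inhibitor 21.1% of all genes rose and 23.9% fell, and with the ligand 14.7% rose and 9.28% fell. Of 26 further glycolysis, lactate and pyruvate genes tested, 8 rose and 6 fell with the inhibitor, and 2 rose and 8 fell with the ligand. The glucose transporter Slc2a1 rose with the inhibitor (0.52 ± 0.07, adjusted p = 7.42e-05), as did Bpgm (0.52), which makes 2,3-bisphosphoglycerate, while the muscle enolase Eno3 fell by 0.90 and Pdhb, a pyruvate dehydrogenase subunit, by 0.41. With the ligand, pyruvate kinase Pklr changed by -0.90, the hexokinase-like Hkdc1 by -0.77, Pdhb by -0.55 and the mutarotase Galm by -0.48. The list's median log2 change was 0.03 with the inhibitor and -0.11 with the ligand.

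Of 29 further gluconeogenesis, fructose, galactose and glycogen genes, 8 rose and 6 fell with the inhibitor, and 1 rose and 11 fell with the ligand. With the ligand, the 4 called genes with the smallest p were the sugar transporters Slc2a2 (-1.58 ± 0.10, adjusted p = 1.06e-06) and Slc2a5 (-1.30 ± 0.10, adjusted p = 2.15e-06), the triokinase Tkfc (-1.09 ± 0.08, adjusted p = 1.2e-06) and the coactivator Ppargc1a (-0.90), all lower. Slc2a5 also fell with the inhibitor (-0.55 ± 0.10, adjusted p = 0.000556). With the inhibitor, the glycogen branching enzyme Gbe1 rose by 1.03, Creb3l3, a transcription factor of fasting liver, by 0.93 and the glucose-6-phosphatase G6pc by 0.86, while the glycogen phosphorylase Pygl fell by 1.36. The median was 0.01 with the inhibitor and -0.25 with the ligand. Of 9 pentose phosphate genes, 2 rose and 3 fell with the inhibitor, among them Rpia (-0.77) and Prps2 (-0.71), which make ribose phosphates for nucleotides, and Rpe (0.50). With the ligand, limma called 0 of the 9, and 2 had an unadjusted p under 0.05.

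Of 20 genes for HIF and its regulators, 6 rose and 2 fell with the inhibitor, and 2 rose and 4 fell with the ligand. So 8 and 6 of the 20 were called, where all genes were called at 44.9% and 24%. Hif1a itself, chosen after its values were seen, was not called: its mean signals were 3038 ± 289 untreated, 2907 ± 224 with the inhibitor and 2837 ± 70.7 with the ligand (SD, n = 3). Epas1, which encodes HIF2 alpha, rose with the inhibitor (0.59 ± 0.09, adjusted p = 0.000189) and fell with the ligand (-0.37 ± 0.09, adjusted p = 0.0116, lost without untreated replicate 1 at -0.29 and an adjusted p of 0.0595, range 0.00389 to 0.0595). The HIF ligase component Vhl (0.67), the partner Arnt2 (1.16) and Hif3a (0.41) rose with the inhibitor, and Arnt2 also rose with the ligand (1.23).

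Of 42 other hypoxia response genes, 10 rose and 6 fell with the inhibitor, and 11 rose and 7 fell with the ligand. That made 16 and 18 of the 42 called, beside 44.9% and 24% of all genes. Stc1, a secreted calcium regulator, rose from a mean signal of 36.3 to 215 with the inhibitor (2.15 ± 0.16, adjusted p = 4.53e-07), Angptl4, a lipase inhibitor, by 1.50, the creatine transporter Slc6a8 by 1.25 and Insig2, a brake on sterol synthesis, by 1.18. With the ligand, Anxa1 (2.18) and Edn1 (1.55) rose, and Insig2 changed by -0.27. For ligand against inhibitor, 13 of the 42 were higher and 11 lower, where 32.4% of all genes were higher and 22.9% lower. Among them Angptl4 (-1.88), Slc6a8 (-1.58) and Insig2 (-1.45) were lower and the carbonic anhydrase Car12 (2.04) was higher. The median of this list was 0.11 with the inhibitor and 0.02 with the ligand. For ligand against inhibitor it was -0.14, beside 0.07 over all genes.

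Markers of the cell types in these cultures moved between the groups as well. The shares over all genes given for the lists apply here too. For ligand against inhibitor, 32.4% of all genes were higher and 22.9% lower. The summed signal of 18 absorptive enterocyte markers was 89828 to 99204 untreated, 105672 to 126934 with the inhibitor and 68707 to 76149 with the ligand, and 15 of the 18 were lower, and 1 higher, with ligand than with inhibitor. Slc2a5 is on this list too. The summed signal of 10 stem cell markers was 35659 to 40737, 14163 to 15839 and 45293 to 53764 in the same order, all 10 falling with the inhibitor and 6 rising with the ligand. The 11 markers of dividing cells summed to 33716 to 37342, 21460 to 23520 and 36291 to 40739. Of 8 goblet markers, 0 rose and 4 fell with the inhibitor and 1 rose and 2 fell with the ligand, with sums of 32658 to 38776, 26846 to 31903 and 31766 to 39214 that overlapped between untreated and ligand. Paneth markers summed to 35646 to 45390, 28947 to 35456 and 42021 to 59202, enteroendocrine markers to 10267 to 12122, 11803 to 12436 and 14460 to 15780.0, and tuft markers to 286 to 317, 157 to 188 and 612 to 659. For cells foreign to an epithelial culture, Ptprc, Cd3e and Itgam (leukocytes), Col1a1, Col3a1, Dcn and Lum (fibroblasts) and Pecam1, Cdh5, Tek and Emcn (endothelium) were all under the filter. The summed signal of the listed markers with a probe set was 172 to 188 untreated, 269 to 319 with the inhibitor and 132 to 184 with the ligand for leukocytes, where Csf1r (0.92) and Cd68 (0.66) rose with the inhibitor. It was 343 to 380, 239 to 309 and 392 to 466 for fibroblasts, where of 4 markers tested with the inhibitor Vim fell by 1.11 and the other 3 were not called (0.03 to 0.42), and 83.7 to 97.0, 74.3 to 113 and 68.9 to 94.8 for endothelium. The part of these cell type differences in the changes of the metabolic and hypoxia genes was not tested.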

How the data were processed

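The authors deposited linear intensities, with 1 signal for each probe set on each array. Per the submitters' processing notes these come from MAS5 (version not given in the sources used here). MAS5 leaves dim signals noisy, and 28.9% of values lay at or below 16. The trimmed mean was 350.002 on each array, so the values share 1 scale. The precision is limited by 3 arrays a group. RNA was extracted with a miRNeasy kit and labelled by MessageAmp Premier, per the labels' protocols. All 9 columns were used.

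Computed here from the deposited intensities: log2(signal + 16), which understates changes of dim genes. Of 45101 probe sets, 64 controls were left out, and 34945 had 1 gene symbol, 932 several and 9160 none. The Entrez identifier of 34741 of the 34945 was in the RefSeq table, with no symbol differing. Probe sets above their array's 40th percentile (signals of 25.9 to 32.04) on at least 3 arrays were kept, and the brightest per gene was used. Groups, taken from the labels, entered limma 3.58.1 (R 4.3.3) with 1 mean per group over 9 arrays and 6 residual degrees of freedom. The variance prior followed intensity, tests were 2-sided, and p-values were adjusted by Benjamini-Hochberg over 12941 genes at 0.05. The pipeline was tested on simulated data.

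Genes named are all members, up to 4 called genes with the smallest p per pathway list and comparison, marker lists as counts and sums, and probe sets called against the brightest. The members and lists were chosen with earlier results of these data known. Alternatives (17 per comparison) changed the offset, filter, scaling, probe set rule, variance prior, arrays in the fit and a replicate block, and left out each array in turn.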

Additional observations from a re-analysis of the deposited data

How the results depend on the processing

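Of the members called, 7 of 11 with the inhibitor, 6 of 13 with the ligand and 16 of 19 for ligand against inhibitor kept their call in all 17 alternatives run. The members called higher with the inhibitor numbered 4 with no intensity trend and 4 to 7 when 1 array was left out. With the ligand, members called higher numbered 1 under median centring and 1 to 2 with 1 array left out. Members called lower numbered 7 with no intensity trend and 6 to 16 with 1 array left out, and members called in all 8 to 18. The members' median change with the ligand was -0.28 under median centring and -0.27 to -0.15 with 1 array left out, and for ligand against inhibitor it was -0.35 under median centring. Pdk1 for ligand against inhibitor reversed to 0.20 (adjusted p = 0.0203) with the mean of its probe sets, which hold 2 called higher there. For the other moved values the cause was not tested. Whether the replicate numbers pair the samples was not settled, since the labels do not say. Correlations of deviations between same-numbered arrays ran from -0.08 to 0.08 over all genes, with 0 of 9 over 0.1. Among the 33 members tested, replicate 1 was the lowest of its group for 17 untreated, 17 with the inhibitor and 14 with the ligand. Ligand replicate 2 was the lowest of its group for 17. For these counts the shares over all genes were not computed. A replicate block called 5742 genes with the inhibitor, 2981 with the ligand and 7130 between the treatments, beside 5812, 3105 and 7154 without it. The block also called Ndrg1 higher with the inhibitor (adjusted p = 0.0367). With the ligand it called Bnip3 (adjusted p = 0.036), Car9 (0.0481) and P4ha2 (0.0391) lower, and members called lower went from 11 to 14. For ligand against inhibitor it called Bnip3 lower (adjusted p = 0.0247). The number of arrays limits precision, and dim probe sets near the filter carry the largest error.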
